A study of Mus musculus with 95 samples.

Results

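Small RNA of striatum was compared with small RNA of cortex in wild type (WT) mice, using 32 of the 95 libraries of a study of zQ175 knock-in mice, a model of Huntington's disease. The members were all libraries whose labels gave the WT genotype and 1 of these 2 brain regions, which made 16 striatal and 16 cortical libraries. They came from 16 animals, and each animal gave 1 library of its left striatum and 1 of its left cortex. All animals were 6 months old and on a C57BL6/J background. They were WT littermates from 2 lines, CHDI-81003003, whose knock-in allele kept the neomycin resistance cassette (neo-intact), and CHDI-81003019, from which it had been deleted (neo-deleted), with 8 animals from each line and both sexes in each. No WT animal carried the expanded allele, and no treatment was given in the labels. Tissue had been flash frozen, RNA extracted with a Qiagen RNeasy kit and sequenced on Illumina instruments after enrichment of RNA fractions.

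The striatum receives input from the cortex and consists mostly of inhibitory spiny projection neurons, whereas the cortex is built around excitatory projection neurons with a smaller share of inhibitory interneurons. A microRNA (miRNA) is cut from a hairpin precursor and guides silencing of messenger RNAs that match its seed, the bases near its 5′ end. In brain, miRNAs such as mir-124 and mir-9 mark neurons, mir-219 and mir-338 accompany the maturation of oligodendrocytes, and mir-132 and mir-212 are induced by neuronal activity. The libraries are of bulk tissue, so fewer cells of a type and less RNA per cell cannot be told apart.

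The count table listed miRBase hairpin identifiers of the form MI and a number. The names used below are those of the human hairpin entries that carry these identifiers. The files and the reference tables do not pair them with names, so the pairing rests on general knowledge of miRBase. Mouse reads could be counted only where they matched a human entry, and a hairpin count does not separate its 2 arms. Positions and sequences are those of the mouse gene of the same name in RefSeq, on build GRCm38.p6, and 59 of the 81 features looked up had such an entry. Estimates off a whole number by more than 0.005 in at least 1 library occurred in 81 of the features tested, and for such features named below it is said that estimates were not whole, since reads may be shared with a related hairpin.

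Of the 9 regional miRNAs defined below, mir-187 and mir-195 had no mouse entry of the same name and are not printed. The mature miRNAs of the others are shown first, each as the arm usually described as the guide, with the seed (bases 2 to 8) in capitals. The first 4 come from hairpins that were higher in striatum and the other 3 from hairpins that were lower.
mmu-miR-139-5p: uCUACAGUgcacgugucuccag
mmu-miR-138-5p: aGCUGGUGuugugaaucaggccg
mmu-miR-652-3p: aAUGGCGCcacuaggguugug
mmu-miR-1298-5p: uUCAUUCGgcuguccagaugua
mmu-miR-182-5p: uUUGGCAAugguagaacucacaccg
mmu-miR-34a-5p: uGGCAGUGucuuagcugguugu
mmu-miR-490-3p: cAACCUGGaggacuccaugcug
No seed was shared among these 7. In mouse, Mir139 lies at chr7:101475376-101475443 in an intron of Pde2a, which encodes a phosphodiesterase of cyclic nucleotides. Mir138-2 lies at chr8:94324311-94324381 in an exon of the long noncoding RNA C78859, and Mir652 at chrX:142739000-142739097 in an intron of Tmem164. Mir1298 lies at chrX:147064905-147065002 in an intron of Htr2c, which encodes a serotonin receptor. Mir490 lies at chr6:36421742-36421825 in an intron of Chrm2, which encodes a muscarinic acetylcholine receptor. All 5 are on the strand of the gene that holds them. Mir34a (chr4:150068454-150068555) and Mir182 (chr6:30165918-30165992) overlapped no gene other than small RNAs in the GENCODE M21 annotation, from which these host genes were taken, while the RefSeq table placed Mirc35hg over Mir182 and Nup93 over Mir138-2.

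Total counts ran from 103873 to 495415 per library, and the tested features held 99.56% of them. A number after the letter L in the library names, whose meaning the labels do not give, divided the libraries. Libraries with the number 8 (L8) were 5 striatal and 7 cortical ones, with totals of 297046 to 495415, and the other 20 had totals of 103873 to 164218. The other striatal libraries were all L7 and the other cortical ones L1 or L2, so that outside L8 the L number and the tissue cannot be told apart. Only 1 animal had both of its libraries in L8. In every other animal the L numbers of the 2 libraries differed, so counts of animals given below also carry the L number. In L8, 4 of the 5 striatal but 2 of the 7 cortical libraries were from males. Only 1 of these striatal libraries but 4 of the cortical ones came from the neo-intact line. The fit therefore held terms for L8, sex and line, and each difference was checked within L8. Between L8 and the other libraries, 82.3% of the tested features differed at an adjusted p under 0.05 in edgeR's quasi-likelihood test. As a check of the labels, the neuronal list summed to between 94655 and 123598 CPM (counts after scaling each library to a common total) of total counts in the 32 libraries and to 318 to 666 in 16 WT liver libraries. The hepatocyte list summed to 518 to 1278 CPM in brain and to at least 204950 in liver. The lists held no miRNA taken as specific to striatum or cortex, so the labels were checked only as brain.

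Striatum and cortex shared their most abundant miRNAs. Over all 32 libraries most tested features differed, mainly by modest amounts, and within L8 43.4% did. In edgeR's quasi-likelihood test over all tested features, 63 were higher and 63 lower in striatum at an adjusted p under 0.05, here termed called, which made 36% in each direction and 72% in all. Within L8, 76 (43.4%) were called, 39 higher (22.3%) and 37 lower (21.1%). Both comparisons called 75 features in the same direction (42.9%), 39 higher (22.3%) and 36 lower (20.6%), and none in opposite directions. The 39 differed by a median of 0.77 on the log2 scale and the 36 by 0.68. In libraries outside L8, 111 (63.4%) were called, and 82.3% of features had the same sign inside and outside L8. The split between higher and lower moved with the scaling: with total counts instead of TMM scaling it was 75 higher and 50 lower, and after thinning to a common total 43 higher and 72 lower. Without the cortical library of neo-deleted male replicate 3, the count within L8 was 50 and the count shared by both comparisons 49.

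The 3 most abundant hairpins were the same in both regions. These were mir-127 (MI0000472), a member of the imprinted Dlk1-Dio3 cluster, mir-181a-1 (MI0000289, estimates not whole) and mir-26a-1 (MI0000083, estimates not whole). mir-127 took 19.4% ± 3.92 of the counts in striatum and 15.96% ± 3.72 in cortex (SD, n = 16 each). Its level followed the L number, at 107005 to 129358 TMM-scaled CPM in L8 striatal libraries and 206813 to 255903 in the other striatal ones, and the tissue difference was 0.13 on the log2 scale (SE 0.03, adjusted p = 0.00139). That call was lost in 6 of 16 alternative settings, with 0.03 (adjusted p = 0.521) after thinning. mir-181a-1 ran from 75305 to 104951 CPM in striatum (median 85083) and from 99229 to 137881 in cortex (median 117213). It was lower in striatum by log2 -0.41 (adjusted p = 9.59e-08), although the ranges overlapped. Summed with its second copy, mir-181a was lower by -0.31 in the 32 libraries, and within L8 its difference of -0.26 was not called (adjusted p = 0.115). mir-26a-1 took 7.12% ± 1.02 of striatal and 6.60% ± 1.12 of cortical counts, with a log2 difference of 0.08 (adjusted p = 0.0491) that was not called within L8 (0.17, adjusted p = 0.113) and turned to -0.01 after thinning.

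Features called in both comparisons and at least 2-fold different in each (a log2 difference of 1 or more in size) are called regional miRNAs here. There were 9 (5.14% of the tested features), 5 higher (2.86%) and 4 lower (2.29%) in striatum. All 9 also met this rule with a filter of 10 CPM in 5 libraries, which each of them passed in both regions. For reading the ranges that follow, the 2 regions did not overlap over all libraries in 9.14% of tested features, within L8 in 29.7% and outside L8 in 26.9%. Just inside this limit stood mir-195, with log2 -1.19 over all libraries and -1.06 within L8, and just outside it mir-181c, with -1.14 and -0.99.

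mir-187 (MI0000274) showed the widest separation of the regions. The 5 L8 striatal libraries held 1795, 1973, 2001, 2117 and 2125 CPM. The other 11 striatal libraries ran from 5269 to 7631 CPM with a median of 6297. The 16 cortical libraries ran from 29.2 to 605 CPM with a median of 76.5. Every striatal library stood above every cortical one, and the L8 striatal libraries stood below the other striatal ones. The log2 difference was 5.14 over the 32 libraries (SE 0.27, adjusted p = 1.11e-16) and 5.05 within L8 (SE 0.58, adjusted p = 8.30e-05). It was higher in striatum in 16 of 16 animals.

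mir-139 (MI0000261) and mir-652 (MI0003667) were higher in striatum without overlap of the regions. In L8, striatal libraries held 2189, 2318, 2421, 2497 and 2507 CPM of mir-139, and the other striatal libraries 2633 to 3233. Cortical libraries held 674 to 1094 CPM, with a median of 817 and little difference between L8 and the rest. The regions did not overlap, and the log2 difference was 1.68 (SE 0.06, adjusted p = 6.65e-21) and 1.54 within L8 (SE 0.14, adjusted p = 3.66e-05). For mir-652 the L8 striatal libraries held 420, 428, 441, 452 and 473 CPM and the L8 cortical ones 143.96 to 262. Over all libraries the striatal range was 267 to 492.6 CPM (median 394) and the cortical range 59 to 262 (median 147), again without overlap. The log2 difference of mir-652 was 1.51 (SE 0.11, adjusted p = 3.36e-13) and 1.44 within L8 (SE 0.17, adjusted p = 8.98e-05).

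mir-138, an miRNA enriched in brain that limits the size of dendritic spines in rat neurons, is made from 2 hairpins with the same 5p arm, printed above once. Estimates of both hairpins were not whole. mir-138-2 (MI0000455) stood at 14350 to 17513 CPM in striatum (median 15661) and at 3876 to 8995 in cortex (median 4885). Those of L8 lay between 14350 and 15670, close to the others, and the regions did not overlap. Its log2 difference was 1.59 (SE 0.09, adjusted p = 1.80e-15) and 1.38 within L8 (SE 0.24, adjusted p = 0.000967). mir-138-1 (MI0000476) was also higher, by 1.41 (SE 0.11, adjusted p = 2.19e-12) and by 0.79 within L8 (adjusted p = 0.0131), and so missed the limit there. The value within L8 was 0.50 (adjusted p = 0.164) without the striatal library of neo-deleted female replicate 3 and 1.18 (adjusted p = 0.00549) without the cortical library of neo-deleted male replicate 3. Summed, the 2 hairpins were higher in striatum by 1.54 over all libraries and 1.07 within L8 (adjusted p = 0.000977).

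mir-1298 (MI0003938), from the Htr2c intron, was the only regional miRNA higher in striatum whose values overlapped between the regions. In L8, striatal libraries held 608, 637, 642, 682 and 1411 CPM and the other striatal libraries 510 to 830 (median 655.9). Cortical libraries ran from 24.5 to 1254 CPM with a median of 114. All but 1 of the 16 cortical libraries stood below every striatal one, and the exception was neo-deleted female replicate 1 at 1254 CPM. The log2 difference was 2.12 (SE 0.31, adjusted p = 3.95e-07) and 2.02 within L8 (SE 0.71, adjusted p = 0.0387). Within L8 the call was lost when any 1 of 6 of the 12 libraries was left out, namely the striatal ones of neo-deleted female 3, neo-deleted males 2 and 4 and neo-intact male 3, and the cortical ones of neo-deleted male 3 and neo-intact male 2 (adjusted p = 0.0555 to 0.184). Without the high cortical library it was 2.92 (adjusted p = 0.000384).

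The 2 libraries with the highest mir-1298 were also the highest of their groups for mir-204 and mir-34c, which are abundant in the choroid plexus. In CPM of total counts, mir-204 stood at 9982 in the cortical library of neo-deleted female replicate 1 and at 2548 to 3618 in the other 6 L8 cortical libraries. It stood at 7743 in the striatal library of neo-deleted female replicate 3 and at 2968 to 3749 in the other 4. mir-34c stood at 2169 and 2353 in these 2 libraries, against 638 to 886 and 764 to 1414 in the others of their groups. The choroid plexus list, which holds mir-1298 itself, mir-204, mir-34c, mir-449a, mir-448 and mir-1264 (3 of 8 members with an identifier were tested, 2 called higher and 1 of these also within L8), summed to 4263 to 12166 CPM in striatum and 2735 to 13782 in cortex. Of all tested features, 36% were called higher and 22.3% were also called higher within L8. The log2 tissue difference of mir-204 was 0.06 (SE 0.13, adjusted p = 0.707), with 3185 ± 836 TMM-scaled CPM in striatum and 3141 ± 1513 in cortex (SD, n = 16). mir-211, a relative of mir-204 in the list, had no count in 14 of the 16 libraries of each region. The part of choroid plexus in the mir-1298 difference was not tested.

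**Figure D1:**
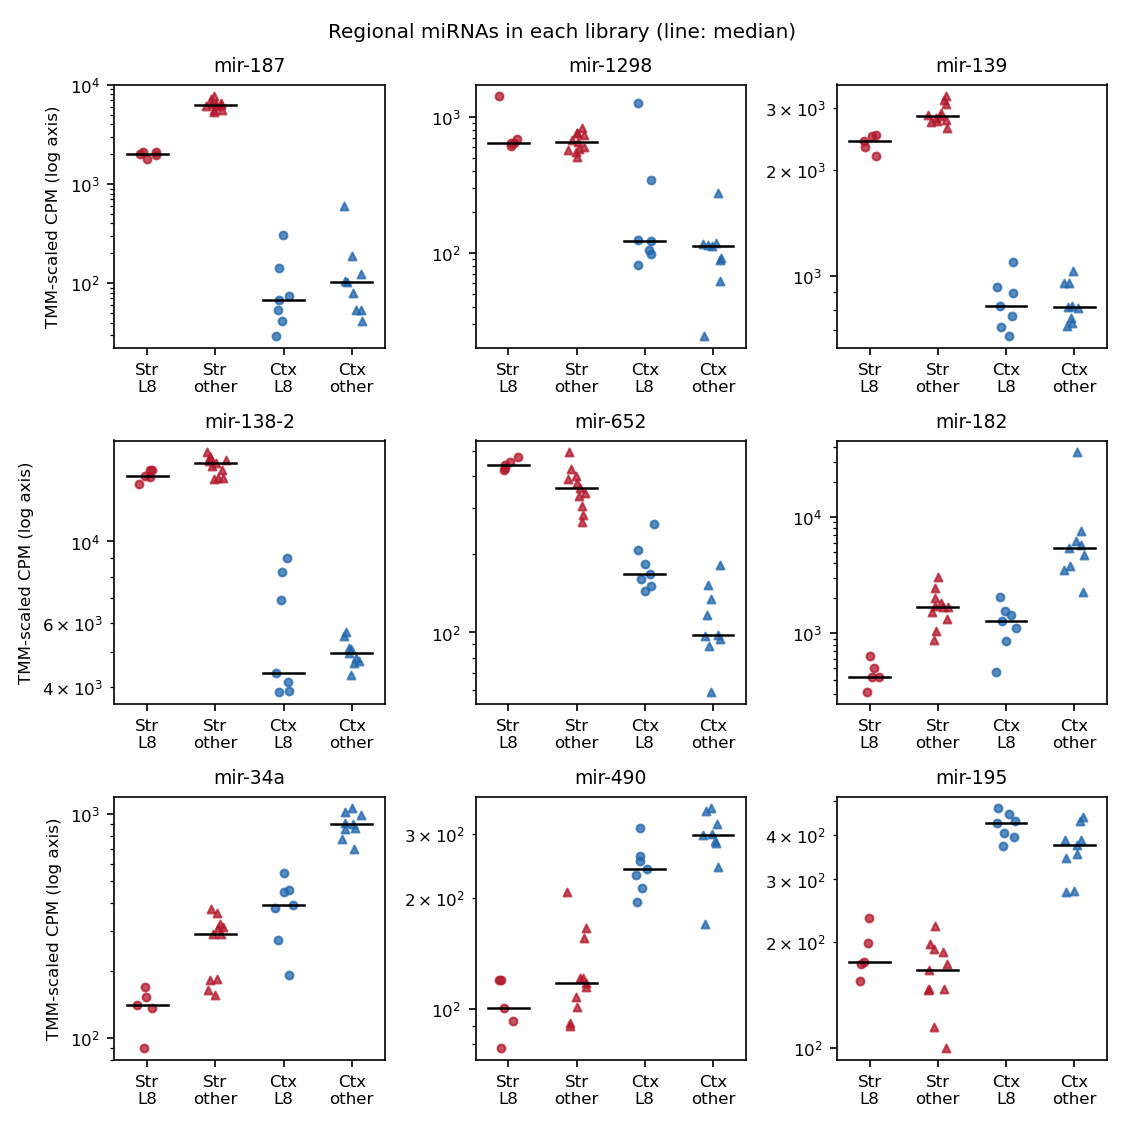
TMM-scaled CPM (log axis) of the 9 regional miRNAs in each of 32 libraries, with circles for L8 and triangles for the other L numbers, red for striatum (Str) and blue for cortex (Ctx), and a line at each group's median. mir-187 stood at 1795 to 7631 CPM in striatum and at 29.2 to 605 in cortex, while mir-182 and mir-34a were also lower in L8 than in the other libraries of each region.

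Of the 4 regional miRNAs that were lower in striatum, mir-195 (MI0000489), of the mir-15 and mir-16 family, was the only one without overlap. The L8 striatal libraries held 154.96, 173, 175.3, 198.5 and 233 CPM, and the L8 cortical ones 374 to 477 (median 434.4). Over all libraries striatum ran from 99.8 to 233 CPM (median 173) and cortex from 276 to 477 (median 393). The log2 difference was -1.19 (SE 0.09, adjusted p = 6.36e-13) and -1.06 within L8 (SE 0.14, adjusted p = 0.000186). mir-497 (MI0003138), which is made from the same transcript as mir-195, stood at 158 ± 54.4 CPM in striatum and 323.4 ± 166 in cortex (SD, n = 16), and was lower by -0.95 and by -1.08 within L8 (adjusted p = 0.00238).

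mir-34a (MI0000268), a target of p53, was low in striatum in both sets of libraries. The L8 striatal libraries held 90.3, 135.97, 140, 152 and 169 CPM and the L8 cortical ones 191.6 to 546 (median 393). Outside L8 striatum ran from 156 to 375 CPM and cortex from 701 to 1058. There was no overlap within either set, but the lowest L8 cortical libraries reached the range of the other striatal ones. The log2 difference was -1.64 (SE 0.13, adjusted p = 2.19e-12) and -1.49 within L8 (SE 0.28, adjusted p = 0.00153).

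The seed of mir-34a-5p was shared in the mouse table with miR-34b, miR-449a and miR-449c, so hairpins with this seed can be set side by side.
mmu-miR-34a-5p: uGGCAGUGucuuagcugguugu
mmu-miR-449a-5p: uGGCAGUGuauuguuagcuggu
mir-449a (MI0001648) had a mean of 26.3 ± 16.3 CPM of total counts in striatum and 3.25 ± 3.84 in cortex (SD, n = 16), with no count in 2 striatal and 8 cortical libraries. Its low counts kept it out of the test above. It passed the lower filter described below through striatum alone, so no test of it is given. mir-34c was higher in striatum by 0.78 (SE 0.14, adjusted p = 1.07e-05), with 1216 ± 341.7 against 732 ± 322 TMM-scaled CPM, but was not called within L8 (0.73, adjusted p = 0.0835).

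mir-490 (MI0003125), from the Chrm2 intron, was lower in striatum in all 16 animals. The L8 striatal libraries held 78.2, 92.8, 101, 120 and 120 CPM, and the L8 cortical ones 195 to 311 (median 241). Over all libraries striatum ran from 78.2 to 208 CPM (median 116) and cortex from 170 to 351 (median 271). The ranges overlapped because 1 striatal library outside L8, at 208 CPM, stood above the lowest cortical libraries, at 170 and 195 CPM. The log2 difference was -1.21 (SE 0.11, adjusted p = 1.76e-11) and -1.30 within L8 (SE 0.17, adjusted p = 0.000135).

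mir-182 (MI0000272), a miRNA of the mir-183 cluster known from sensory organs, was lower in striatum but varied most. It was higher in striatum than in cortex in 5 of 16 animals, a count that also carries the L number. The L8 striatal libraries held 313, 422, 425, 506 and 634 CPM and the L8 cortical ones 464 to 2049 (median 1268). Outside L8 striatum ran from 878 to 3066 CPM (median 1696) and cortex from 2283 to 35981 (median 5376). The regions overlapped in both sets, and L8 libraries were lower by -2.28 on the log2 scale in the same fit. The log2 difference was -1.91 (SE 0.31, adjusted p = 2.23e-06) and -1.75 within L8 (SE 0.33, adjusted p = 0.00151), and -1.47 without the library at 35981 CPM.

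That cortical library, of neo-intact female replicate 3, was high for related hairpins as well. In CPM of total counts it held 318 of mir-183, 147 of mir-200a, 88.2 of mir-200b, 123.5 of mir-429 and 91.5 of mir-141. The other 8 cortical libraries outside L8 held at most 36.8, 14.7, 16.9, 15 and 16.9 of these. It also held 503 CPM of mir-187, against 36.2 to 169 in the others. It was the highest of the 9 for 22 of the tested features and the lowest for 22. These miRNAs of the mir-183 cluster and mir-200 family summed to 10675 to 128928 CPM in liver. mir-192, the only tested member of the hepatocyte list, stood at 926 CPM in this library and at 470 to 1022 in the others. mir-3591 of the same list stood at 17.6 CPM in it and at 0 to 51.5 in the others. mir-96, of the same cluster as mir-182, had no count in it. With that library left out, the 32-library fit still placed mir-187 at 5.31, mir-1298 at 2.19 and mir-182 at -1.47.

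**Figure D2:**
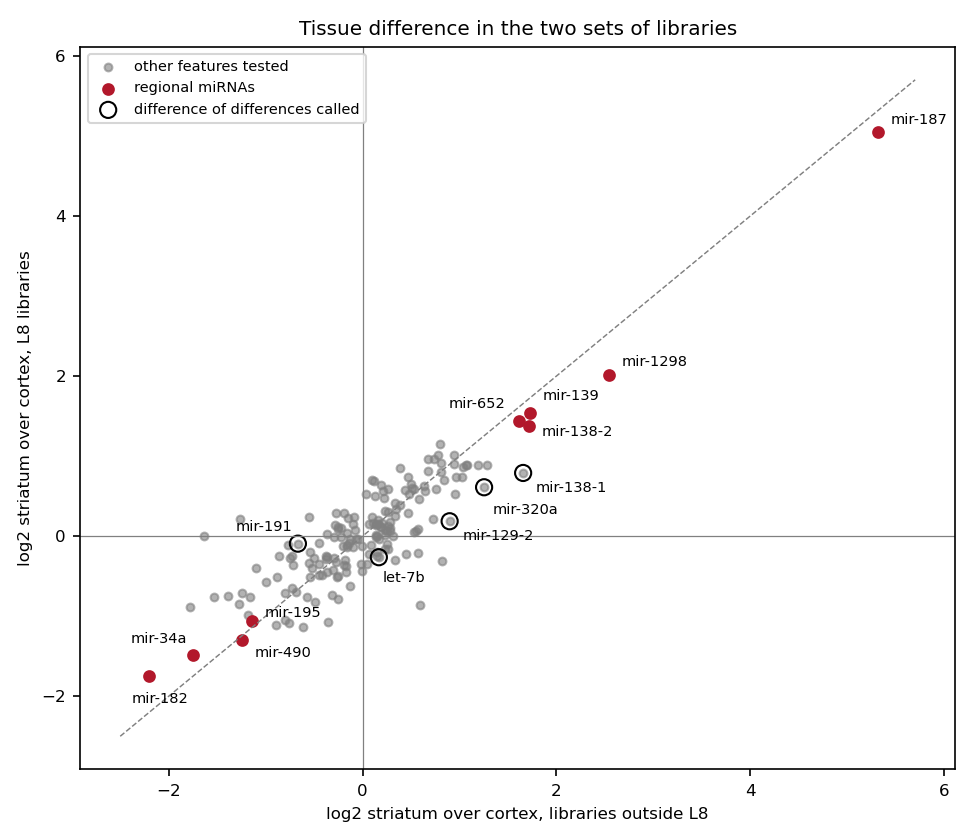
Log2 difference of striatum over cortex for the tested features in libraries outside L8 (horizontal axis) and in L8 (vertical axis), with the dashed line marking equal values. Regional miRNAs are filled red and the 5 features whose difference itself differed between the sets are circled, among them mir-138-1 at 1.66 outside and 0.79 within L8.

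The size of the tissue difference changed with the L number for few features. The difference of differences (L8 minus the others) was called for 5 features (2.86%), and 31 had an unadjusted p under 0.05. mir-138-1 differed by 1.66 outside L8 and 0.79 within it, a difference of -0.83 (adjusted p = 0.0264). mir-129-2 (MI0000473, estimates not whole) went from 0.90 to 0.19 and mir-320a (MI0000542, estimates not whole) from 1.25 to 0.61. mir-191 (MI0000465) was lower by -0.67 outside and by -0.09 within L8. let-7b (MI0000063, estimates not whole) was the only feature called in opposite directions, at 0.17 outside L8 (adjusted p = 0.0479) and -0.26 within it (adjusted p = 0.0478). Its call within L8 was lost in 9 of 12 fits without 1 library, with -0.14 (adjusted p = 0.401) without the cortical library of neo-deleted male replicate 3, and in 6 of 10 alternative settings (adjusted p up to 0.179). None of the 9 regional miRNAs was among the 5. With the animal as a block, 0 features were called and with DESeq2 14. Neither line nor sex changed the tissue difference of any feature past the threshold in edgeR (0 features for each, 0%), with 8 and 16 at an unadjusted p under 0.05 and 0 with DESeq2.

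The Dlk1-Dio3 cluster, an imprinted array of miRNAs expressed from the maternal chromosome, moved mostly upward. Of 43 members with an identifier, 26 were tested, 14 called higher and 1 lower in striatum, beside 36% of all tested features in each direction. The other 11 were not called, while 72% of all tested features were called. In both comparisons 13 were called higher and 1 lower, beside 22.3% and 20.6% of all tested features. Their median log2 difference was 0.27 over all libraries and 0.51 within L8, beside medians of 0.02 and 0.02 over all features tested. mir-431 (MI0001721) stood at 1381 ± 383.6 CPM in striatum and 652 ± 206.5 in cortex (SD, n = 16), log2 0.99 (adjusted p = 4.94e-12) and 0.87 within L8. mir-381 (MI0000789) was higher by 0.95 and by 1.01 within L8 (adjusted p = 0.000593), at 5388 ± 1336 against 2991 ± 990 CPM. Among the most abundant members, mir-410 (MI0002465) was higher by 0.51 and by 0.73 within L8 (adjusted p = 0.0149), and mir-411 (MI0003675) was not called (0.19, adjusted p = 0.120). The one called lower was mir-329-1 (MI0001725), at log2 -0.45 and -0.73 within L8 (adjusted p = 0.00124). The neighbours mir-376a-1, mir-376c, mir-379 and mir-136 passed no threshold and lay between -0.18 and -0.09 over all libraries. mir-342 and mir-345, which stood in the list as chosen, lie outside the Dlk1 to Dio3 interval in mouse and are not counted here.

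The mir-23, mir-24 and mir-27 family was lower in striatum. All 6 tested hairpins were called lower, 3 of them also within L8, beside 36% and 21.1% of all tested features. mir-24-2 (MI0000081, estimates not whole) had the largest difference, at 243 ± 155.4 CPM in striatum and 753 ± 255 in cortex (SD, n = 16), log2 -1.56 (SE 0.15, adjusted p = 9.61e-11) and -0.88 within L8 (adjusted p = 0.000398). mir-23a (MI0000079, estimates not whole) was lower by -0.98 and by -1.05 within L8. mir-27b (estimates not whole) was not lower in L8, where its difference was 0.14 (adjusted p = 0.340) beside -0.20 over all libraries. In mouse Mir23a, Mir27a and Mir24-2 lie in 1 cluster on chromosome 8, and their differences of -0.98, -0.91 and -1.56 over all libraries were all called. Within L8 mir-27a was not called (-0.40, adjusted p = 0.0753).

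The mir-221 and mir-222 pair, which share the seed below, and the mir-30 family were lower too.
mmu-miR-221-3p: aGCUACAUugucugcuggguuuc
mmu-miR-222-3p: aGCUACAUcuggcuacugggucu
mir-222 (MI0000299) stood at 15173 ± 7136 CPM in striatum and 19775 ± 9731 in cortex (SD, n = 16), log2 -0.62 (adjusted p = 2.54e-08) and -0.82 within L8 (adjusted p = 0.00415). mir-221 (MI0000298) was lower by -0.81 and by -0.72 within L8. Of the 6 mir-30 hairpins, 4 were called lower and 1 higher, and the 4 were also lower within L8, beside 36% of all tested features called lower and 21.1% within L8. mir-30e (MI0000749, estimates not whole) led with log2 -0.63 (adjusted p = 1.95e-11) and -0.77 within L8. mir-30a, mir-30d and mir-30c-2 (estimates of all 3 not whole) were lower by -0.26, -0.42 and -0.14 on the log2 scale, and by -0.44, -0.44 and -0.43 within L8. mir-30c-2 lost its call over all libraries in 11 of 16 alternative settings (down to -0.01, adjusted p = 0.907) and in 21 of 32 fits without 1 library. Within L8 the calls of mir-30d and mir-30c-2 were lost in 5 and 4 of 12 such fits, with -0.27 (adjusted p = 0.298) and -0.21 (adjusted p = 0.361) without the cortical library of neo-deleted male replicate 3. The median of the family was -0.20, and -0.44 within L8. Smaller families moved little. For reading their counts, 36% of all tested features were called in each direction. Of 3 mir-26 hairpins 2 were called higher, with mir-26b at 0.26 and at 0.32 within L8 (adjusted p = 0.0213), and mir-26a-2 not called. Of 3 mir-29 hairpins mir-29c was higher by 0.16 and mir-29b-2 lower, with 0 called within L8 in edgeR. Of 2 hairpins derived from LINE elements, mir-151a was lower by -0.26 and mir-708 higher by 0.16, and neither was called within L8. Over all libraries their calls were lost in 7 and 8 of 16 alternative settings (adjusted p up to 0.333 and 0.523).

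Of 6 tested hairpins of mir-99, mir-100 and mir-125, 5 were called lower over all libraries (36% of all features were), and 0 within L8 in edgeR. The difference between L8 and the other libraries was called for none of the 6 in edgeR (adjusted p from 0.263 for mir-99a to 0.946 for mir-125b-2). mir-125b-1 (MI0000446, estimates not whole) was lower by -0.68 over all libraries (adjusted p = 1.68e-09) and by -0.28 within L8 (adjusted p = 0.231). mir-125a (MI0000469), the most abundant of them, was lower by -0.40 (adjusted p = 1.86e-07) and by -0.24 within L8 (adjusted p = 0.224). mir-100 (estimates not whole) was lower by -0.45 (adjusted p = 0.00191), but its value within L8 was 0.24 (adjusted p = 0.597). The let-7 family had 12 hairpins tested, 5 lower and 1 higher, with 3 lower in both comparisons. The 6 called of 12 were a smaller share than the 72% called among all features. let-7g (MI0000433, estimates not whole) was lower by -0.46 and by -0.34 within L8 (adjusted p = 0.00769). Of the more abundant hairpins of the family, all with estimates that were not whole, let-7c was lower by -0.22 and by -0.37 within L8 (adjusted p = 0.00879). let-7i was lower by -0.11 (adjusted p = 0.0369, not called within L8), a call lost in 11 of 16 alternative settings (adjusted p up to 0.717) and in 12 of 32 fits without 1 library, and let-7f-2 was not called (0.03, adjusted p = 0.939).

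**Figure D3:**
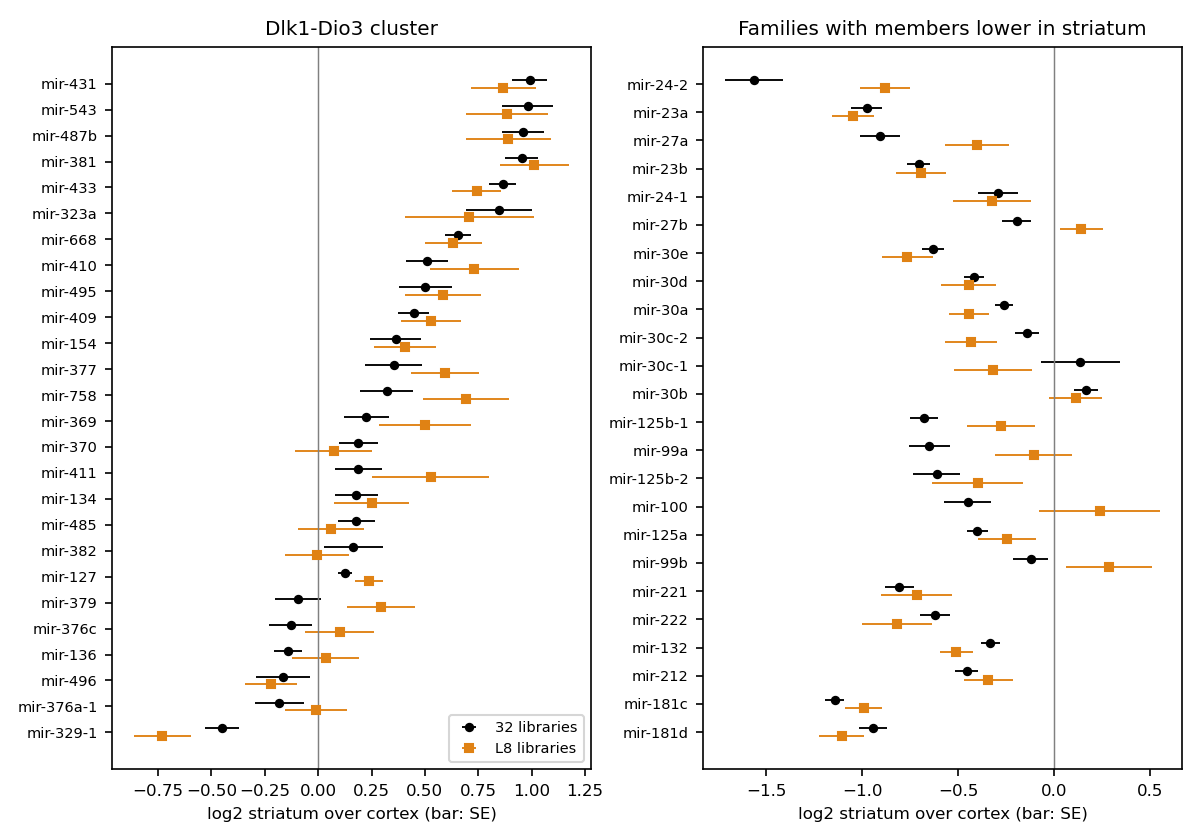
Log2 difference of striatum over cortex with its SE (bars) for tested members of the Dlk1-Dio3 cluster (left) and of families with members lower in striatum (right), over 32 libraries (black circles) and in L8 (orange squares). mir-431 stood at 0.99 and 0.87 and mir-24-2 at -1.56 and -0.88, while mir-99b and mir-100 lay on opposite sides of 0 in the 2 fits.

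Neuronal miRNAs went in both directions. Of 24 tested, 9 were called higher and 10 lower, with 6 and 8 in both comparisons. These shares lie near those of all tested features, of which 36% were called higher and 36% lower. mir-128-1 (MI0000447, estimates not whole), which restrains excitability of neurons in mouse, stood at 14062 ± 1212 CPM in striatum and 22870 ± 2601 in cortex (SD, n = 16). It was lower in all 16 animals without overlap, by log2 -0.70 (SE 0.05, adjusted p = 4.69e-13) and -0.64 within L8. mir-9-2 (MI0000467, estimates not whole) was lower by -0.41 and mir-124-1 (MI0000443, estimates not whole) by -0.67, and both were called within L8. mir-149 (MI0000478) was higher by 1.17 (adjusted p = 7.68e-13) and by 0.89 within L8, at 2576 ± 410 against 1118 ± 268 CPM. mir-873 (MI0005564) was lower by -1.13 and by -0.85 within L8 (adjusted p = 0.0172), at 185 ± 53.3 against 422 ± 105 CPM.

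Of 9 tested activity-regulated miRNAs, 5 were called lower and 2 higher, beside 72% of all features called in either direction. The 5 were also called lower within L8, where the call of mir-181a-1 was lost in 4 of 10 alternative settings and in 6 of 12 fits without 1 library. Its value there was -0.15 (adjusted p = 0.229) without the striatal library of neo-deleted female replicate 3. mir-132 (MI0000449) stood at 5375 ± 559 CPM in striatum and 6967 ± 1154 in cortex (SD, n = 16), log2 -0.33 (adjusted p = 3.95e-07) and -0.51 within L8 (adjusted p = 0.000754). mir-212, its neighbour in the genome, was lower by -0.46 and by -0.34 within L8. mir-181c (MI0000271, estimates not whole) and mir-181d (MI0003139) were lower by -1.14 and -0.94, and by -0.99 and -1.11 within L8. mir-181a-1, mir-181a-2, mir-181b-2, mir-181c and mir-181d hold 1 seed in their 5p arms, and mir-181b-2 (estimates not whole) was higher, by 0.16 (adjusted p = 0.00311, not called within L8).

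Both tested members of the oligodendrocyte list were called higher in both comparisons, as were 22.3% of all tested features. mir-219b (MI0017299, estimates not whole) stood at 721 ± 191.6 CPM in striatum and 441 ± 99.7 in cortex (SD, n = 16), log2 0.78 (adjusted p = 1.36e-09) and 0.96 within L8 (adjusted p = 8.30e-05). mir-338 (MI0000814, estimates not whole) was higher by 0.62 and by 0.82 within L8. The list summed to 2225 to 6009 CPM of total counts in striatum and 1243 to 3793 in cortex. Of 5 tested vascular and mesenchymal members, 3 were called lower and 0 higher in edgeR, beside 36% of all features in each direction. mir-143 (MI0000459), abundant in smooth muscle, stood at 4912 ± 1343 against 11129 ± 3219 CPM, log2 -1.15 (adjusted p = 8.96e-10) and -0.72 within L8 (adjusted p = 0.00471). mir-126 (MI0000471), of endothelial cells, was lower by -0.61 (adjusted p = 4.88e-07), but was not called within L8 (-0.25, adjusted p = 0.258). mir-145 (MI0000461), the partner of mir-143 in smooth muscle, was lower by -0.53 and by -0.79 within L8 (adjusted p = 0.00328). mir-133a-1, of muscle, was not called (0.04, adjusted p = 0.755). This list summed to 5548 to 15331 CPM in striatum and 9921 to 25750 in cortex. The part of white matter or vessels in the tissue difference was not tested.

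Among immune and microglial miRNAs, 6 were tested, 1 was called higher and 4 lower, beside 72% of all features called in either direction. mir-21 (MI0000077) was higher in striatum by 0.53 (adjusted p = 4.84e-11) and by 0.65 within L8 (adjusted p = 0.00107). mir-146b (MI0003129, estimates not whole), induced by NF-kB, was lower by -1.46 (adjusted p = 6.80e-09), at 370 ± 123.7 against 971 ± 414 CPM (SD, n = 16). Within L8 its value of -0.77 was not called (adjusted p = 0.204). mir-29b-2 (estimates not whole) was lower by -0.21 (adjusted p = 0.0258, not called within L8), and mir-150 of lymphocytes was not called (0.19, adjusted p = 0.0558). mir-155 had no count in 16 striatal and 15 cortical libraries. Of the erythroid list, mir-486-2 (estimates not whole) was lower by -0.17 (adjusted p = 0.0230) and was not called within L8 (-0.02, adjusted p = 0.948). mir-486-1, its near-identical copy, was not called (-0.16, adjusted p = 0.763).

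Some hairpins were too low for the filter used so far. When at least 10 CPM in 5 libraries was asked for instead, 257 features were tested and 25 met the regional rule, among them the 9 named above and 15 not tested before (10 higher and 5 lower). A feature can pass this filter through the region where it is high alone, as 5 of the 15 did, so the count is a description and supports nothing. mir-10b (MI0000267), which lies in the Hoxd gene cluster at chr2:74726070-74726137, stood at 26.5 ± 23.3 CPM of total counts in striatum and 180 ± 93.2 in cortex (SD, n = 16). Striatal libraries ran from 0 to 84.8 CPM and cortical ones from 18.1 to 324, with the L8 groups apart at 34 to 84.8 and 165 to 316. Its log2 difference was -2.79 (SE 0.27, adjusted p = 1.82e-10) and -2.64 within L8 (SE 0.26, adjusted p = 3.32e-05). mir-10a, with the same seed in its 5p arm, was not called (-0.39, adjusted p = 0.119).

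2 hairpins of low level are known from the Htr2c locus, which also holds mir-1298. mir-448 (MI0001637), at chrX:147158210-147158321 in an intron of Htr2c, stood at 39.7 ± 42.8 CPM of total counts in striatum and 15.5 ± 22.7 in cortex (SD, n = 16). Striatal libraries of L8 ran from 38.5 to 189 CPM, with the highest in the library that was high for mir-204. Its log2 difference was 1.60 (adjusted p = 0.000384) and 2.16 within L8 (adjusted p = 0.0260). mir-1264 (MI0003758) stood at 20.3 ± 13.2 against 3.05 ± 6.79 CPM and was at 0 in 10 of 16 cortical libraries. It passed the lower filter through striatum alone, so no test of it is given. The cortical library of neo-deleted female replicate 1, high for mir-204, held 95.8 CPM of mir-448 and 27.1 of mir-1264, the highest cortical values of both.

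**Figure D4:**
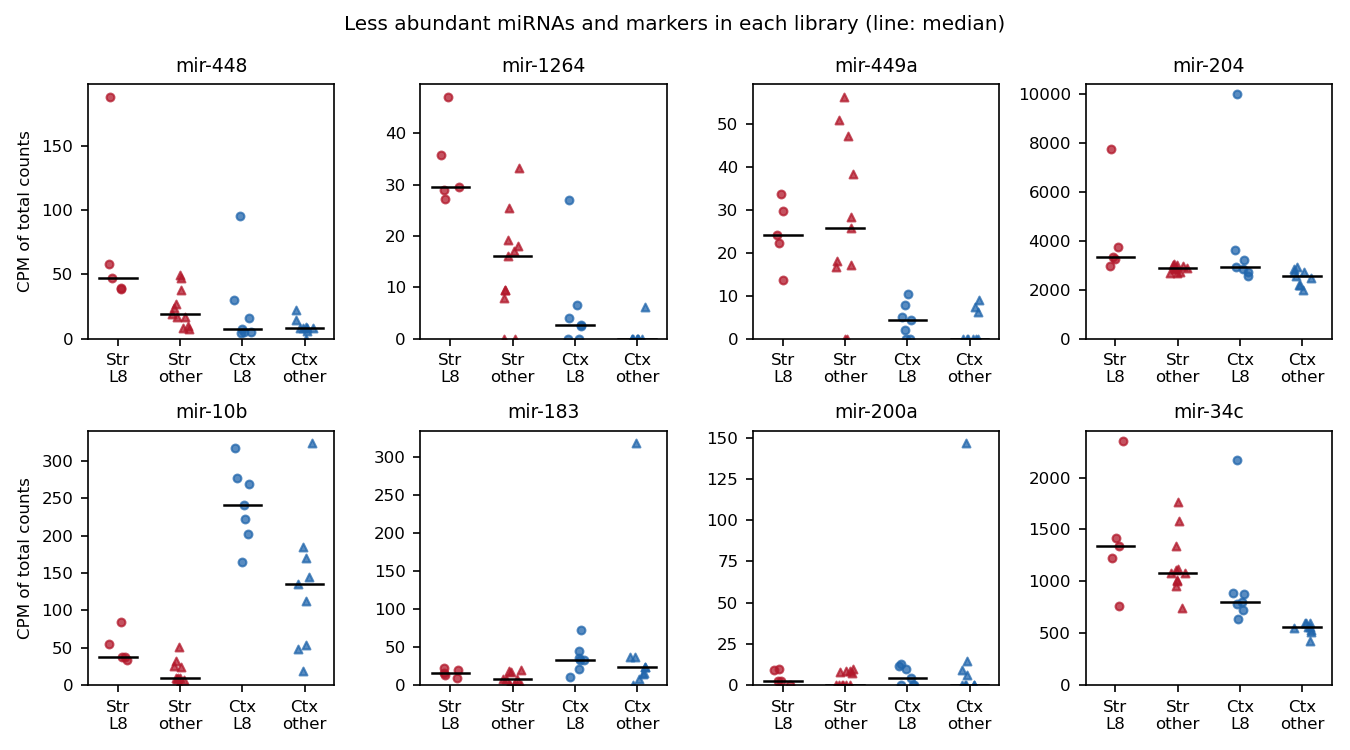
CPM of total counts in each of 32 libraries for 6 less abundant hairpins and for mir-204 and mir-34c, with circles for L8, triangles for the other L numbers, red for striatum (Str) and blue for cortex (Ctx), and a line at each group's median. The cortical library at 9982 CPM of mir-204 is the same as the highest cortical one for mir-448, mir-1264 and mir-34c, and the one at 318 CPM of mir-183 is the same as the one at 147 CPM of mir-200a.

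The other hairpins of low level included mir-193a, mir-296 and mir-1247, which were higher in striatum by log2 1.56 to 2.05, and mir-183, mir-199a-2 and mir-203b, which were lower by -1.46 to -1.71. mir-378c and mir-184 passed the lower filter through striatum alone and cortex alone. mir-296 (MI0000747) stood at 66.9 ± 26 CPM in striatum and 18.8 ± 7.06 in cortex (SD, n = 16), with no library at 0. mir-199a-2 was at 0 in all 5 L8 striatal libraries and in 3 of the 7 L8 cortical ones. Among the unnamed ones MI0017351 had the largest difference, at 130 ± 75.4 against 16.03 ± 22.9 CPM.

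Among tested features with a mouse position, 58 lay within 10000 bases of another on the same strand, in 17 clusters. Calls in these clusters were counted over all 32 libraries, and the counts were not repeated within L8. Among the 16 clusters with a call, 8 had only lower calls, 4 only higher ones and 4 both, and 4 of the 12 with a single direction held only 1 call. The cluster of mir-25, mir-93 and mir-106b had 3 higher calls, between 0.28 and 0.81 on the log2 scale, beside 36% of all tested features called higher. Within L8 mir-93 and mir-106b were called and mir-25 was not (0.28, adjusted p = 0.170). The neighbours mir-181a-1 and mir-181b-1 had opposite calls over all libraries, at -0.41 and 0.26 (adjusted p = 0.0364 for mir-181b-1). Within L8 both lay below 0, at -0.27 and -0.22, and mir-181b-1 was not called (adjusted p = 0.560).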

How the data were processed

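Of the 2 tables deposited by the authors, one held unscaled estimated counts and the other FPKM, which divide counts by hairpin length and library size. CASAVA 1.8.2 and mm10 are named in the submitters' processing notes. The aligner, the counter and the feature reference are not given in the sources used here. Estimates were rounded and tested in R 4.3.3 with edgeR 4.0.16 (TMM scaling, filterByExpr by tissue with a minimum count of 10 and total of 15, quasi-likelihood test, Benjamini-Hochberg adjusted p under 0.05 over 175 features), with tissue, L8, sex and line as terms. CPM are TMM-scaled unless said to be of total counts. Alternatives used DESeq2 1.42.0, limma 3.58.1 on log2(FPKM + 1) and log2(FPKM + 0.1), other scalings and filters, and each library left out. Scripts were tested on simulated data.

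Regional miRNAs with a mean of at least 100 CPM in the higher tissue (up to 12 a direction), the 3 most abundant of each tissue, up to 5 called differences of differences and up to 4 members of each list were named; others, chosen after their values were seen, are mir-195's, mir-34a's, mir-182's and Htr2c's relatives, further members of the lists, members of genomic clusters and those of the lower filter. The members and lists were chosen with earlier results of these data known. Replicates are separate animals. The 2 libraries of an animal share its identifier in the labels, which pairs them; their residuals correlated with a median r of -0.04 (range -0.48 to 0.19), beside 0.01 for different animals. Floors and intervals were not used, and depth differed between L8 and the other libraries.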

Additional observations from a re-analysis of the deposited data

Results flagged for a closer look

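Libraries that stood apart in a group of 5 to 9 were looked for in 51 groups of the features described in full, and 6 were found, all of them high. The rule flags about 1 in 20 groups of normally distributed values, but it was applied to CPM without a log scale. The flags are not independent either, since the same library recurs among them. mir-1298 was far above the rest in L8 cortex in neo-deleted female replicate 1 (1254 CPM, next 341.4), in L8 striatum in neo-deleted female replicate 3 (1411, next 682) and in the other cortical libraries in neo-intact female replicate 3 (276, next 118). The same library of neo-intact female replicate 3 stood at 35981 CPM of mir-182 (next 7637) and 605 of mir-187 (next 189). mir-187 was also high in the L8 cortical library of neo-intact female replicate 1, at 309 CPM (next 141.9).

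The tissue difference differed between L8 and the other libraries for mir-191 (0.50), let-7b (-0.43), mir-129-2 (-0.77), mir-320a (-0.64) and mir-138-1 (-0.83, all log2 differences of differences, adjusted p = 0.0264 to 0.0442 in edgeR). The L number and its depth cannot be told apart in these.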

How the results depend on the processing

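The counts of features called kept their size within 1.5 times under the other settings run, with at least 85 over 32 libraries, 62 to 94 within L8 and 109 to 113 outside it. Without the L8 term 85 features were called and with the animal as replicate block 120, and the block left the 9 regional miRNAs called. The count of regional miRNAs rose to 27 (15 higher and 12 lower) with no filter and to 25 at 10 CPM in 5 libraries, where 373 and 257 features were tested. The difference of differences by L number was called for 14 features with DESeq2 and 0 with the animal as replicate block; the cause was not tested. Leaving out each library gave 117 to 130 calls over all libraries, 50 to 81 within L8, 106 to 115 outside L8, 49 to 80 in both and 7 to 14 regional miRNAs, with 50, 49 and 14 without the cortical library of neo-deleted male replicate 3. mir-26a-1 reversed after thinning to 103873 counts, from 0.08 to -0.013 (adjusted p = 0.784). limma on FPKM placed the median feature at 0.12, with 76 higher and 49 lower, beside 0.02 in edgeR. Calls of differences over 0.1 were lost too, for mir-30c-2 and mir-486-2 in 11 of 16 settings each, mir-29b-2 in 9 and mir-151a in 7. Low totals limit hairpins under 10 CPM to a few counts in libraries outside L8.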
